A study of Homo sapiens with 48 samples.

Results

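The genes described here are the sensors, transcription factors and processing proteases of the unfolded protein response: ERN1, EIF2AK3, ATF6, XBP1, CREB3L2, MBTPS1 and MBTPS2. They were chosen by name with earlier results of these data known, as were the gene lists used below. Counts set against the share of all genes are therefore descriptive. All 7 were found in the table of 25066 genes and were among the 13881 genes with enough reads to test. RNA was sequenced from TMD8 and HBL1, lines of the activated B cell-like type of diffuse large B cell lymphoma that carry an engineered Cas9, in both the compound-treated and the vehicle-treated cells. Cells received 5 µM NGI-1, which inhibits the oligosaccharyltransferase that attaches N-glycans to proteins in the endoplasmic reticulum (ER), 50 nM acalabrutinib, an inhibitor of Bruton's tyrosine kinase (BTK), 20 nM copanlisib, an inhibitor of phosphoinositide 3-kinase (PI3K), or the vehicle DMSO, for 3, 6 or 24 h. Each of the 24 combinations of line, compound and time had 2 libraries, and nothing in the labels says that these were independent cultures. The p-values therefore reflect the spread between the libraries of a group, which may be technical.

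Proteins that fail to fold in the ER are detected by 3 membrane sensors. IRE1, encoded by ERN1, cuts a short stretch out of the XBP1 messenger RNA, which shifts the reading frame so that an active transcription factor is made. PERK, encoded by EIF2AK3, phosphorylates the initiation factor eIF2 alpha, which lowers translation in general and favours that of ATF4. ATF6 moves to the Golgi, where the site-1 protease (MBTPS1) and the site-2 protease (MBTPS2) cut it and release its transcription factor part. CREB3L2 encodes a membrane-bound transcription factor of the same build that is released by the same proteases. In the B cell lineage XBP1 is known for its role in the secretory plasma cell.

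The sequences that link these genes to each other are shown first. In the GENCODE v29 transcript XBP1-201, a stretch of 26 bases is present that is joined out in the transcripts XBP1-202 and XBP1-207, the stretch that IRE1 removes. It is printed in capitals within 70 bases of the coding strand, and its length leaves a remainder of 2 when divided by 3, which is what shifts the frame.
XBP1 around the IRE1 cut: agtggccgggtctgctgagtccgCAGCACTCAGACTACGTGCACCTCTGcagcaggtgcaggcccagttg
The deposited counts are per gene, so they give the sum of the cut and the uncut XBP1 message and say nothing of their shares.

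Promoter windows of 300 bases, 250 before and 50 after the start, were taken from RefSeq (GRCh38.p14) for all 7 genes, with a second start for XBP1 and for CREB3L2. Motifs were searched on both strands: the ER stress element ERSE (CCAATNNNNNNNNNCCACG), ERSE-II (ATTGGNCCACG), the unfolded protein response element UPRE (TGACGTGG) and the cyclic AMP element CRE (TGACGTCA). ERSE and ERSE-II share their CCACG end. The first XBP1 start (chr22:28800520-28800819, minus strand) holds an ERSE at bases 199 to 217 of the window, and 27 of 35116 windows of all genes (0.0769%) hold one. The first CREB3L2 start (chr7:138002037-138002336, minus strand) holds a CRE at bases 72 to 79, as do 649 windows (1.85%). These 2 windows are shown because they hold a match, which is in capitals. That of EIF2AK3 (chr2:88627415-88627714, minus strand) is shown as a window with no match from a gene called in both lines.
XBP1: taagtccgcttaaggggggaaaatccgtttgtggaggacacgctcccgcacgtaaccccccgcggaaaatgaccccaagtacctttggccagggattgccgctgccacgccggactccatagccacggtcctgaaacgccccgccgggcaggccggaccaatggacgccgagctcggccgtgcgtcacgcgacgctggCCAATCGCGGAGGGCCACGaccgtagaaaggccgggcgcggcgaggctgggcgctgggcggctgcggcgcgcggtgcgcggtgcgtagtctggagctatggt
CREB3L2: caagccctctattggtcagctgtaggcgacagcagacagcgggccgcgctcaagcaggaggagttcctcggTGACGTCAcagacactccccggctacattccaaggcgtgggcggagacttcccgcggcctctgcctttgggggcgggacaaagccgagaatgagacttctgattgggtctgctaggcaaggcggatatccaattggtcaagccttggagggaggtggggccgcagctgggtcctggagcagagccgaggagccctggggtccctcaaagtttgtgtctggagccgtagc
EIF2AK3: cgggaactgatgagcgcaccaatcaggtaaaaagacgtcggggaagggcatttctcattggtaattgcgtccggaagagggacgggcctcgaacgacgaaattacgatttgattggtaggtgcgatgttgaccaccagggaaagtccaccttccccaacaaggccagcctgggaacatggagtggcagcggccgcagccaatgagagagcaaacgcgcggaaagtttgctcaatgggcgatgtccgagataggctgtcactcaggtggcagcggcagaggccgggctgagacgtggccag
The EIF2AK3 window, the other windows of these 7 genes and the second starts hold none of the 4 motifs in these letters. A match describes the sequence and is not evidence of binding. For comparison, 6 of 21 ER folding and degradation genes with a window held an ERSE, namely HSPA5, HSP90B1, PDIA6, CALR, CRELD2 and SERP1, and 3 held an ERSE-II, namely HYOU1, SDF2L1 and HERPUD1. Of the windows of all genes, 0.0541% held an ERSE-II and 0.729% a UPRE.

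The libraries held 7165377 to 11999050 counted reads. The B cell markers MS4A1 (639 to 2000 CPM, reads scaled by library size) and CD79A (480 to 1080 CPM) were high in each library, while CD3D, CD3E, LYZ, CD14 and KRT19 did not pass 0.353 CPM in any. Other markers of T, myeloid, epithelial or stromal cells reached higher values, with maxima of CD8A 2.30, CSF1R 2.94, COL1A1 4.19, EPCAM 15.9 and PECAM1 28.8 CPM. Over all libraries the median was 3.63 CPM for EPCAM and 3.31 CPM for PECAM1. The 4 epithelial or stromal markers summed to 1.58 to 5.63 CPM in TMD8 and 14.4 to 41.7 CPM in HBL1, against 2640 to 4370 and 2270 to 3720 CPM for 6 B cell markers, and their part in the differences between the lines was not tested. Each of the 48 libraries correlated best with another of the same line and time. These are bulk samples, in which fewer cells with a message and less message per cell cannot be told apart. Reads per gene set the precision: ERN1 had 42 to 149 reads per library, MBTPS2 99 to 460, and XBP1 358 to 5770. Strand use in the counting is not given in the sources used here. In GENCODE v29, 14.4% of the EIF2AK3 exon bases lie under the antisense gene AC104134.1 and 12.2% of the MBTPS2 exon bases lie within YY2 on the same strand, so reads of these pairs may be split or dropped.

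Without compound, TMD8 held less XBP1 than HBL1, and the 2 proteases went in opposite directions between the lines. Over the 6 DMSO libraries of each line and per kilobase of exon (GENCODE v29, an approximation since the authors' annotation is not known), the median XBP1 level was 18.6 CPM per kb in TMD8 (15.0 to 21.7) and 90.3 in HBL1 (85 to 116), the highest of the 7 genes in both. In TMD8, XBP1 was followed by CREB3L2 (median 11.4 CPM per kb), ATF6 (7.75), EIF2AK3 (5.63), MBTPS1 (5.22), MBTPS2 (4.29) and ERN1 (0.495). XBP1, CREB3L2 and ERN1 stood apart from their neighbours, whereas ATF6, EIF2AK3, MBTPS1 and MBTPS2 overlapped, each with the next. In HBL1 the order was XBP1, CREB3L2 (19.9), MBTPS1 (15.3), ATF6 (7.76), EIF2AK3 (7.73), MBTPS2 (1.51) and ERN1 (0.771), where CREB3L2 overlapped MBTPS1 at the edge and ATF6 overlapped EIF2AK3.

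Between the lines in DMSO, averaged over the 3 times, 6 of 7 genes differed in edgeR's quasi-likelihood test with Benjamini-Hochberg adjustment over all genes (adjusted p under 0.05, here written as called). The share is not particular to these genes, since 78.5% of all genes tested were called between the lines. XBP1 was 5.22-fold lower in TMD8 than in HBL1 (log2 difference -2.39 ± 0.08, SE, adjusted p = 1.8e-25) and MBTPS1 3.23-fold lower (-1.69 ± 0.05, adjusted p = 1.8e-31). MBTPS2, the protease that makes the second cut, was 2.80-fold higher in TMD8 (1.48 ± 0.08, adjusted p = 1.4e-21). CREB3L2 (-0.74), ERN1 (-0.60) and EIF2AK3 (-0.52) were lower in TMD8 on the log2 scale. ATF6 showed a difference of -0.09 with a 95% interval from -0.19 to 0.02 (adjusted p = 0.14).

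Against DMSO of the same line and time, the 7 genes gave 126 tests, of which 41 were called higher and 1 lower. In TMD8 26 of 63 were called higher and 1 lower, and in HBL1 15 of 63 were called higher. Of all genes 30.4% to 31.6% were called at 24 h in TMD8 and 18.9% to 30.2% in HBL1. The share for each comparison is given below, and the difference between the lines in these counts was not tested. XBP1 was called in 11 of 18 comparisons, CREB3L2 and MBTPS1 in 9 each, EIF2AK3 in 7, ERN1 in 4, ATF6 in 2 and MBTPS2 in 0. Comparisons of one line and time share the same DMSO libraries, so the compounds are not independent of each other in these counts. Where treated libraries are said below to lie above DMSO libraries, this only describes levels. The share of all genes without such overlap was not counted. With 2 libraries against 2 it also occurred at small changes, as for MBTPS2 with NGI-1 at 6 h in TMD8 (log2 change 0.03).

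**Figure D1:**
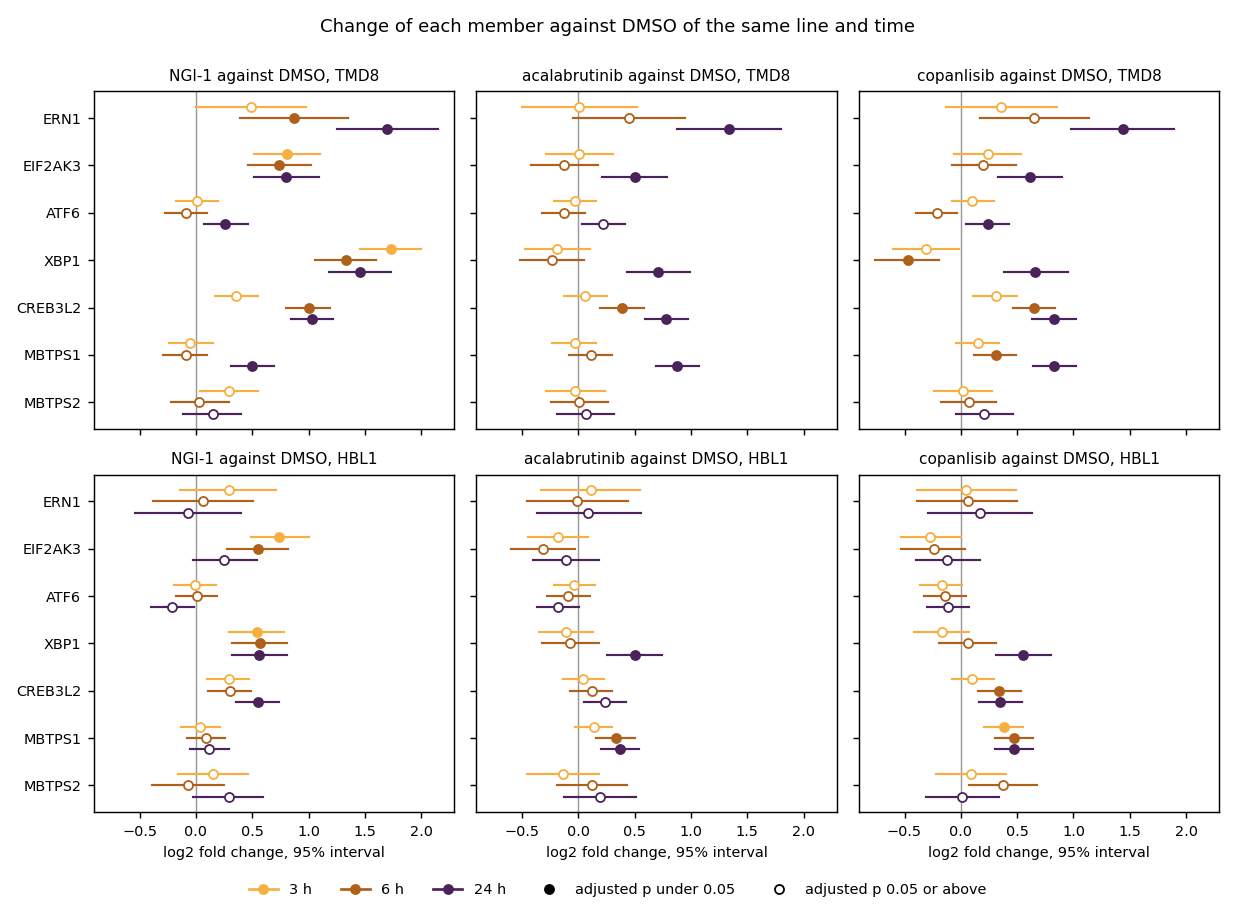
Log2 fold change of each gene against DMSO of the same line and time (x axis), with 95% intervals from edgeR, for NGI-1, acalabrutinib and copanlisib in TMD8 (top) and HBL1 (bottom). Colours give the time and filled points an adjusted p under 0.05. XBP1 has filled points for NGI-1 at each time in both lines, and EIF2AK3 at each time in TMD8 and at 3 and 6 h in HBL1. At 24 h acalabrutinib has 5 of 7 filled in TMD8 (30.8% of all genes called) and 2 in HBL1 (18.9%). Copanlisib has 6 in TMD8 (31.6%) and 3 in HBL1 (30.2%), and MBTPS2 has no filled point.

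Set against all genes, NGI-1 at 3 h called 2 of 7 in TMD8 (0.735% of all genes tested) and 2 of 7 in HBL1 (0.353%). At 6 h it called 4 in TMD8 (4.25%) and 2 in HBL1 (1.15%), and at 24 h 6 in TMD8 (30.4%) and 2 in HBL1 (19.2%). Acalabrutinib called 0 of 7 at 3 h in TMD8 (0.339%) and in HBL1 (0.223%), with 0 of 7 in either line at an unadjusted p under 0.05 and 0 in DESeq2. It called 1 at 6 h in TMD8 (4.50%) and 1 in HBL1 (5.61%), then 5 at 24 h in TMD8 (30.8%) and 2 in HBL1 (18.9%). Copanlisib called 0 at 3 h in TMD8 (1.71%), with 2 of 7 at an unadjusted p under 0.05 and 0 in DESeq2, and 1 in HBL1 (2.22%). It called 3 at 6 h in TMD8 (14.4%) and 2 in HBL1 (9.54%), then 6 at 24 h in TMD8 (31.6%) and 3 in HBL1 (30.2%). The HBL1 counts at 24 h of 2 or 3 in 7 lie near the share of all genes called there.

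The IRE1 gene ERN1 rose in TMD8 at 6 h with NGI-1 and at 24 h with each compound. In HBL1 it was called in 0 of 9 comparisons by edgeR, with 0 at an unadjusted p under 0.05 and 0 in DESeq2, which gave an adjusted p for 8 of them. At 24 h in TMD8 it had 17.1 and 16.3 CPM with NGI-1, 13.1 and 13.0 CPM with acalabrutinib and 11.7 and 16.4 CPM with copanlisib, against 5.06 and 5.25 CPM with DMSO. All 6 treated libraries lay above both DMSO libraries. The log2 fold changes were 1.70 ± 0.22 for NGI-1 (3.24-fold, adjusted p = 5.7e-08), 1.34 ± 0.23 for acalabrutinib (adjusted p = 7.8e-06) and 1.44 ± 0.23 for copanlisib (adjusted p = 2.3e-06), each called also without any 1 library. At 6 h NGI-1 gave 9.97 and 9.57 CPM, against 6.05 and 4.63 CPM with DMSO (0.87 ± 0.24, adjusted p = 0.023), a call that was lost without any 1 of these 4 libraries (adjusted p 0.066 to 0.24). NGI-1 at 3 h (0.49 ± 0.24, adjusted p = 0.66) and copanlisib at 6 h (0.65 ± 0.24, adjusted p = 0.057, called with a separate fit of the line at 0.045) missed the threshold. In HBL1 at 24 h the ERN1 level was 7.06 and 7.52 CPM with NGI-1, against 8.37 and 6.85 CPM with DMSO, and the interval of the log2 change ran from -0.54 to 0.40.

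The PERK gene EIF2AK3 rose early with NGI-1 in both lines. At 3 h it had 55.5 and 50.0 CPM with NGI-1 in TMD8, against 29.2 and 31.2 CPM with DMSO (0.81 ± 0.14, 1.75-fold, adjusted p = 0.00042). In HBL1 it had 89.99 and 94.2 CPM with NGI-1, against 50.6 and 59.7 CPM with DMSO (0.74 ± 0.13, adjusted p = 0.00083). The 2 rises at 3 h thus differed by 0.07 ± 0.19 between the lines (interval -0.32 to 0.45). In TMD8 the 6 h rise was 0.74 ± 0.14 (adjusted p = 0.00036) and the 24 h rise 0.80 ± 0.14 (adjusted p = 2e-05). For HBL1 the 6 h value was 0.55 ± 0.13 (adjusted p = 0.019) and the 24 h value 0.25 ± 0.14 (adjusted p = 0.22). The difference between the lines at 24 h, 0.55, was not called by the main edgeR fit (adjusted p = 0.16). It was called with a replicate term within each line and time (adjusted p = 0.0052). The HBL1 levels at 24 h were 42.4 and 39.3 CPM with NGI-1, against 34.1 and 34.6 CPM with DMSO. Acalabrutinib (0.50 ± 0.14, adjusted p = 0.0063) and copanlisib (0.61 ± 0.14, adjusted p = 0.00077) raised EIF2AK3 at 24 h in TMD8, while no kinase inhibitor comparison in HBL1 was called. Calls were lost without DMSO replicate 1 at 3 h in TMD8 (adjusted p = 0.053) and in HBL1 (0.18). The HBL1 call at 6 h was lost when DMSO replicate 1 (0.34), DMSO replicate 2 (0.062) or NGI-1 replicate 2 (0.66) was left out and with the line fitted on its own (0.071), and that of acalabrutinib without DMSO replicate 2 (0.16) or acalabrutinib replicate 2 (0.064).

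ATF6, the sensor that is itself a transcription factor precursor, was called in 2 of 18 comparisons. Its level stayed between 47.8 and 68.1 CPM in the 24 TMD8 libraries and between 51.1 and 71.3 CPM in the 24 HBL1 libraries, and its log2 changes ran from -0.21 to 0.26. At 24 h in TMD8 it had 57.3 and 60.8 CPM with NGI-1 and 61.95 and 53.9 CPM with copanlisib, against 50.6 and 47.8 CPM with DMSO. NGI-1 (0.26 ± 0.10, adjusted p = 0.030) and copanlisib (0.24 ± 0.09, adjusted p = 0.048) passed the threshold by a small margin. The NGI-1 call was lost without any 1 of its 4 libraries (0.051 to 0.18) and without a filter on low counts (0.12). The copanlisib call was lost without DMSO replicate 1 (0.083), DMSO replicate 2 (0.24) or copanlisib replicate 1 (0.42, log2 change 0.13), without the filter (0.15) and in DESeq2 (0.057). The DMSO level at 3 h in TMD8, 60.4 and 61.9 CPM, was as high as the treated levels at 24 h.

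**Figure D2:**
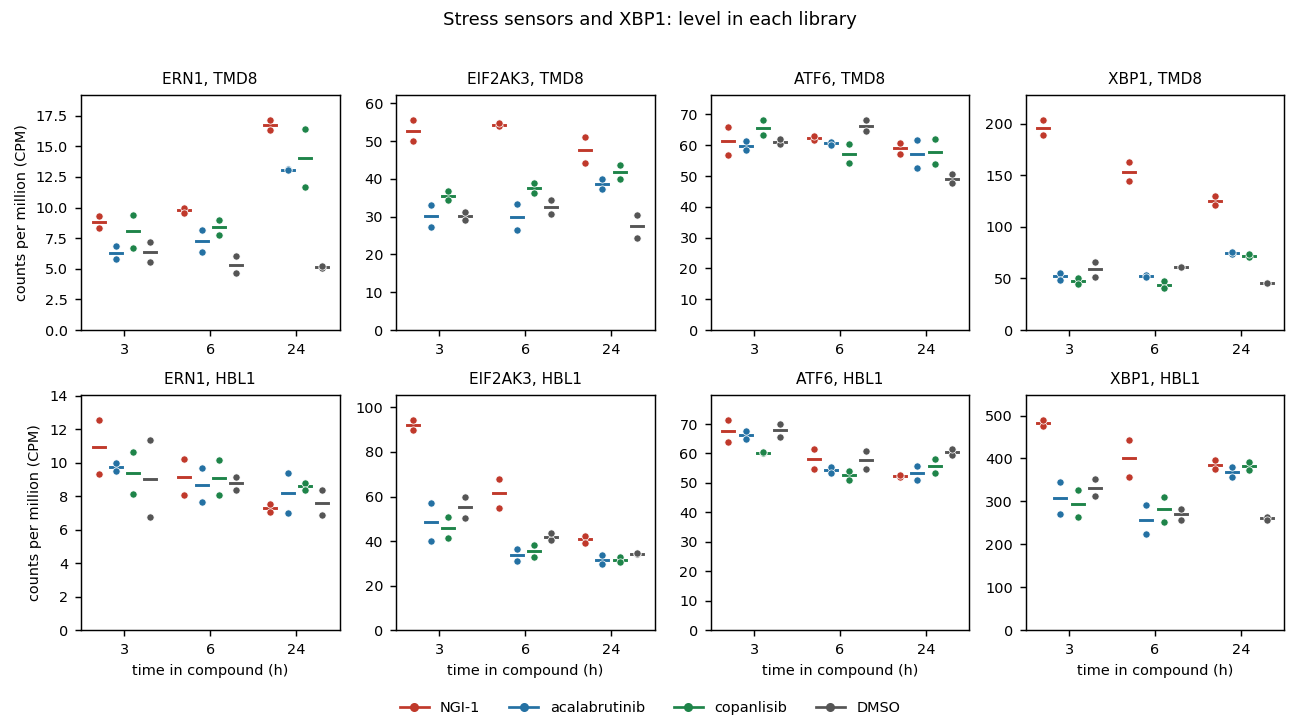
Level of ERN1, EIF2AK3, ATF6 and XBP1 in each library (points, CPM, axes from 0) by time, with the mean of the 2 libraries as a bar, in TMD8 (top) and HBL1 (bottom). XBP1 in TMD8 stood at 189 and 203 CPM with NGI-1 at 3 h, and ERN1 in TMD8 separated from DMSO most at 24 h.

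XBP1 was called with NGI-1 at each time in both lines. In TMD8 it had 203 and 189 CPM with NGI-1 at 3 h, against 65.7 and 51.8 CPM with DMSO (1.73 ± 0.13, 3.31-fold, adjusted p = 4.2e-11). At 6 h it had 144 and 162 CPM with NGI-1, against 60.9 and 61.1 CPM with DMSO (1.33 ± 0.13, adjusted p = 5.9e-09). At 24 h the values were 129.5 and 121 CPM with NGI-1, against 45.6 and 45.4 CPM with DMSO (1.46 ± 0.14, adjusted p = 2.4e-10). The treated level was lower at each later time, and so was the vehicle level between 6 and 24 h.

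In HBL1 the XBP1 rise with NGI-1 was smaller in relative terms on a higher base. At 3 h there were 476 and 489 CPM with NGI-1, against 312 and 352 CPM with DMSO (0.54 ± 0.12, adjusted p = 0.028). At 6 h there were 357.5 and 444 CPM with NGI-1, against 257 and 283 CPM with DMSO (0.57 ± 0.12, adjusted p = 0.0069). At 24 h there were 375 and 395 CPM with NGI-1, against 263 and 258 CPM with DMSO (0.56 ± 0.12, adjusted p = 0.00083). Treated and vehicle libraries did not overlap at any of the 3 times, and the largest treated level of TMD8 stayed below the smallest vehicle level of HBL1. The 24 h call was kept without any 1 library. The 3 h call was lost without any 1 of its 4 libraries (0.054 to 0.83) and with the line fitted on its own (0.21), and the 6 h call without DMSO replicate 1 (0.22) or NGI-1 replicate 2 (0.44) and with the line fitted on its own (0.066).

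The kinase inhibitors raised XBP1 at 24 h in both lines, and copanlisib lowered it at 6 h in TMD8. Copanlisib at 6 h in TMD8 gave 47.8 and 40.4 CPM, against 60.9 and 61.1 CPM with DMSO, a fall (-0.47 ± 0.14, adjusted p = 0.019). That call was lost without DMSO replicate 1 (0.098), DMSO replicate 2 (0.082) or copanlisib replicate 2 (0.25). At 24 h in TMD8 XBP1 had 73.7 and 75.6 CPM with acalabrutinib and 70.5 and 73.8 CPM with copanlisib, against 45.6 and 45.4 CPM with DMSO (0.71 ± 0.14, adjusted p = 0.00012, and 0.66 ± 0.14, adjusted p = 0.00031). In HBL1 after 24 h it had 380 and 356 CPM with acalabrutinib and 391 and 374 CPM with copanlisib, against 263 and 258 CPM with DMSO (0.50 ± 0.12, adjusted p = 0.0031, and 0.55 ± 0.12, adjusted p = 0.00055). All 8 treated libraries at 24 h lay above the vehicle libraries of their line.

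CREB3L2, the ATF6-like factor, rose with all 3 compounds in TMD8 at 24 h and with NGI-1 and copanlisib in HBL1. In TMD8 NGI-1 gave 194 and 193 CPM at 6 h, against 93.8 and 101 CPM with DMSO (1.00 ± 0.10, adjusted p = 2.1e-10), and 207 and 192 CPM at 24 h, against 99.5 and 95.4 CPM with DMSO (1.03 ± 0.10, adjusted p = 1.3e-11). In TMD8 after 24 h acalabrutinib gave 169.8 and 164.5 CPM (0.78 ± 0.10, adjusted p = 1.2e-08) and copanlisib 173 and 172 CPM (0.83 ± 0.10, adjusted p = 3.2e-09). Both treated libraries lay above both vehicle libraries in each of these comparisons. Copanlisib at 6 h in TMD8 (0.65 ± 0.10, adjusted p = 1.9e-06) was called without any 1 library too. Acalabrutinib at 6 h in TMD8 (0.39 ± 0.10, adjusted p = 0.0091) lost its call without DMSO replicate 1 (0.20) or acalabrutinib replicate 2 (0.17). NGI-1 at 3 h in TMD8 fell just short (0.36 ± 0.10, adjusted p = 0.059) and passed in DESeq2 (0.044), without the filter (0.025) and without NGI-1 replicate 2 (0.031).

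In HBL1 CREB3L2 had 251 and 212 CPM with NGI-1 at 24 h, against 158.4 and 157.9 CPM with DMSO (0.55 ± 0.09, adjusted p = 2.1e-05). Copanlisib raised it by 0.34 ± 0.09 at the 6 h point (adjusted p = 0.012) and by 0.35 ± 0.09 at the 24 h point (adjusted p = 0.0030). The first of these was lost without DMSO replicate 1 (0.19) or copanlisib replicate 2 (0.16), the second without copanlisib replicate 1 (0.051). Acalabrutinib at 24 h missed the threshold (0.24 ± 0.09, adjusted p = 0.070) and passed in DESeq2 (0.044), with RLE size factors (0.044), without the filter (0.044) and with a stricter filter (0.028).

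MBTPS1, the site-1 protease, rose at 24 h with both kinase inhibitors in both lines and with NGI-1 in TMD8. At 24 h in TMD8 it had 62.7 and 58.4 CPM with NGI-1, 79.7 and 77.6 CPM with acalabrutinib and 70.2 and 81.8 CPM with copanlisib, against 44.7 and 41 CPM with DMSO. The log2 changes were 0.50 ± 0.10 (adjusted p = 6.1e-05) for NGI-1, 0.88 ± 0.09 (adjusted p = 4e-10) for acalabrutinib and 0.83 ± 0.09 (adjusted p = 2.2e-09) for copanlisib. In HBL1 at 24 h there were 206 and 194 CPM with acalabrutinib and 210.3 and 219 CPM with copanlisib, against 156 and 153 CPM with DMSO (0.37 ± 0.08, adjusted p = 0.0011, and 0.47 ± 0.08, adjusted p = 2e-05). With NGI-1 the HBL1 levels at 24 h were 167 and 171 CPM (0.12 ± 0.08, adjusted p = 0.33). Copanlisib raised MBTPS1 in HBL1 already at 3 h, to 218 and 252 CPM, against 177 and 184 CPM with DMSO (0.38 ± 0.08, adjusted p = 0.0049), and at 6 h (0.47 ± 0.08, adjusted p = 8.2e-05). The 3 h call was lost without DMSO replicate 1 (0.15) or copanlisib replicate 2 (0.30). Acalabrutinib at 6 h in HBL1 (0.33 ± 0.08, adjusted p = 0.013) and copanlisib at 6 h in TMD8 (0.31 ± 0.09, adjusted p = 0.019) lost their calls without any 1 of their 4 libraries (0.055 to 0.13 and 0.055 to 0.17), and the second also without the filter (0.067).

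MBTPS2, the site-2 protease, was called in 0 of the 18 comparisons by edgeR, with 2 at an unadjusted p under 0.05 and 0 in DESeq2. Its level lay between 30.8 and 45.7 CPM in TMD8 and between 11.3 and 19.4 CPM in HBL1. NGI-1 at 3 h in TMD8 gave 42.5 and 42.8 CPM, against 38.3 and 30.8 CPM with DMSO (0.29 ± 0.13, adjusted p = 0.55), and copanlisib at 6 h in HBL1 gave 17.02 and 19.4 CPM, against 13.5 and 14.6 CPM with DMSO (0.37 ± 0.15, adjusted p = 0.11). With these counts the upper limits of the intervals ran as high as 0.68, so rises up to that size lie within the intervals. The main edgeR fit has no replicate term. With such a term within each line and time (a replicate block), MBTPS2 was called higher with copanlisib at 6 h in HBL1 (0.37, adjusted p = 0.032).

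**Figure D3:**
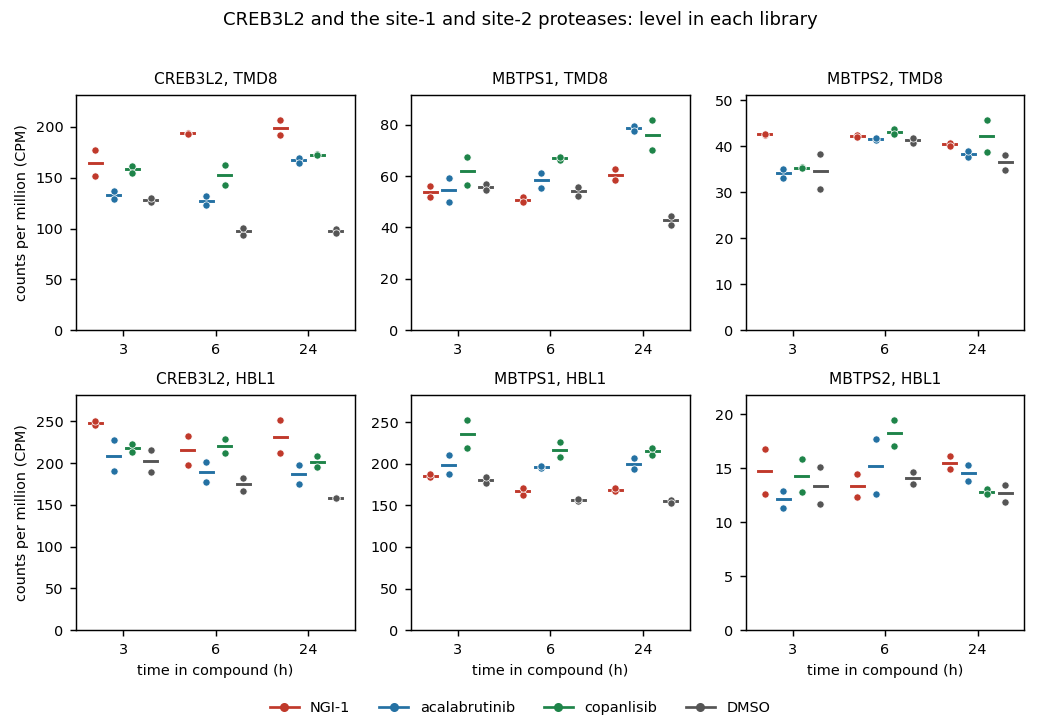
Level of CREB3L2, MBTPS1 and MBTPS2 in each library (points, CPM, axes from 0) by time, with the mean of the 2 libraries as a bar, in TMD8 (top) and HBL1 (bottom). At 24 h in TMD8 all 6 treated libraries lay above both DMSO libraries for CREB3L2 and MBTPS1. The 2 lines differ in scale, and MBTPS2 is the one of the 3 that is lower in HBL1.

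Vehicle levels also differed with time. In TMD8 4 of 7 genes were lower at 24 h than at 3 h in DMSO (32.8% of all genes called) and in HBL1 also 4 of 7 (39.7%). CREB3L2 had 99.5 and 95.4 CPM at 24 h, against 125.9 and 130.3 CPM at 3 h, in TMD8 (-0.39 ± 0.10, adjusted p = 0.0013) and 158.4 and 157.9 CPM, against 189.7 and 216 CPM, in HBL1 (-0.36 ± 0.09, adjusted p = 0.0018). EIF2AK3 fell in HBL1 to 34.1 and 34.6 CPM at 24 h, against 50.6 and 59.7 CPM at 3 h (-0.68 ± 0.14, adjusted p = 8.3e-05). XBP1 fell by 0.38 in TMD8 (adjusted p = 0.038) and by 0.35 in HBL1 (adjusted p = 0.020) on the log2 scale, MBTPS1 by 0.38 in TMD8 (adjusted p = 0.0018) and by 0.22 in HBL1 (adjusted p = 0.031), and ATF6 by 0.31 in TMD8 (adjusted p = 0.0090). Those of XBP1 in TMD8 were lost without DMSO 3 h replicate 1 (0.50, log2 change -0.19) or either DMSO 24 h replicate (0.12 and 0.14), of XBP1 in HBL1 without DMSO 3 h replicate 2 (0.086) or either DMSO 24 h replicate (0.068 and 0.10), of MBTPS1 in HBL1 without the same 3 libraries (0.056, 0.081 and 0.13), and of ATF6 without DMSO 24 h replicate 2 (0.095).
The vehicle at 3 h gives a second yardstick, which not every rise called at 24 h passed. In HBL1 CREB3L2 averaged 201.7 CPM with copanlisib at 24 h, against 202.9 CPM in the 3 h vehicle. In TMD8 the 24 h means of ATF6 with NGI-1 and with copanlisib lay below its 3 h vehicle mean. EIF2AK3 with NGI-1 in HBL1, not called at 24 h, averaged 40.89 CPM, against 55.14 CPM in the 3 h vehicle. Means of the other rises called at 24 h lay above their 3 h vehicle means. In TMD8 at 24 h ERN1 averaged 16.7 CPM, CREB3L2 199 CPM and XBP1 125 CPM with NGI-1, above the 3 h vehicle means of 6.38, 128 and 58.7 CPM. MBTPS1 averaged, in TMD8 at 24 h, 78.7 CPM with acalabrutinib, 75.99 CPM with copanlisib and 60.5 CPM with NGI-1, each above its 3 h vehicle mean of 55.8 CPM.

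The effect at 24 h was set against the effect at 3 h in 1 contrast, each relative to its own DMSO. In TMD8 3 of 7 genes differed for NGI-1 (12.0% of all genes), 4 for acalabrutinib (14.4%) and 4 for copanlisib (10.9%). In HBL1 0 differed for NGI-1 in the main fit (4.80%, with 1 of 7 at an unadjusted p under 0.05 and 0 in DESeq2), 1 for acalabrutinib (3.96%) and 1 for copanlisib (9.31%). For NGI-1 in HBL1 the replicate block within each line and time called EIF2AK3 (-0.49, adjusted p = 0.0040) and CREB3L2 (0.26, adjusted p = 0.018). With NGI-1 in TMD8, ERN1 (1.21 ± 0.33, adjusted p = 0.011), CREB3L2 (0.67 ± 0.13, adjusted p = 0.00046) and MBTPS1 (0.55 ± 0.14, adjusted p = 0.0044) rose more at 24 h than at 3 h. XBP1 (-0.27, interval -0.65 to 0.11) and EIF2AK3 (-0.01, interval -0.41 to 0.40) did not pass this test. XBP1 did pass with the replicate block within each line and time (-0.28, adjusted p = 0.044). With the kinase inhibitors in TMD8 the later effect was higher for XBP1 (0.90 ± 0.20 for acalabrutinib and 0.97 ± 0.20 for copanlisib), ERN1 (1.33 ± 0.34 and 1.08 ± 0.34), CREB3L2 (0.72 ± 0.14 and 0.52 ± 0.14) and MBTPS1 (0.91 ± 0.13 and 0.67 ± 0.13), with adjusted p from 3.4e-06 to 0.029. In HBL1 the main fit called XBP1 alone, for acalabrutinib (0.61 ± 0.17, adjusted p = 0.036) and for copanlisib (0.73 ± 0.17, adjusted p = 0.0047). With acalabrutinib the block within each line and time also called EIF2AK3 in TMD8 (0.49, adjusted p = 0.011) and MBTPS1 in HBL1 (0.23, adjusted p = 0.039). With copanlisib it also called CREB3L2 in HBL1 (0.25, adjusted p = 0.021).
Several of the calls of the main fit were lost when single libraries were left out. Such a fit has 1 library in a group, so a call can be lost through lower precision alone. The log2 changes kept their sign. For XBP1 with acalabrutinib in HBL1 they ran from 0.48 to 0.65 in the fits that lost the call, against 0.61 in the main fit. For CREB3L2 with copanlisib the value was 0.49, against 0.52. Those of ERN1 with copanlisib ranged from below to slightly above the main value. ERN1 with NGI-1 was lost without DMSO 3 h replicate 2 (0.079) or NGI-1 3 h replicate 2 (0.054), and ERN1 with copanlisib without DMSO 3 h replicate 2 (0.14), either DMSO 24 h replicate (0.082 and 0.068), copanlisib 3 h replicate 2 (0.19) or copanlisib 24 h replicate 2 (0.17). CREB3L2 with copanlisib was lost without copanlisib 3 h replicate 2 (0.051). XBP1 with acalabrutinib in HBL1 was lost without acalabrutinib 3 h replicate 1 (0.17), DMSO 3 h replicate 2 (0.14), either DMSO 24 h replicate (0.11 and 0.088) or either acalabrutinib 24 h replicate (0.14 and 0.053), and with the line fitted on its own (0.093).

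The lines were compared directly as the effect in TMD8 minus the effect in HBL1. For NGI-1 1 of 7 genes differed at 3 h (0.0144% of all genes, 2 genes in all), 1 at 6 h (0.0216%, 3 genes in all) and 4 at 24 h (2.57%). XBP1 had a larger rise in TMD8, with a difference of 1.19 ± 0.18 for 3 h (adjusted p = 0.0016) and of 0.89 ± 0.18 for 24 h (adjusted p = 0.0025), and both calls held without any 1 library. At 6 h its difference of 0.76 ± 0.18 missed the threshold (adjusted p = 0.18) and passed in DESeq2 (0.018), without the filter (4.1e-05) and without HBL1 NGI-1 replicate 2 (0.043). ERN1 differed most at 24 h, by 1.77 ± 0.32 (adjusted p = 0.00041), which also held without any 1 library. CREB3L2 differed by 0.70 ± 0.13 at 6 h (adjusted p = 0.020) and by 0.48 ± 0.13 after 24 h (adjusted p = 0.035), and ATF6 at 24 h (0.47 ± 0.13, adjusted p = 0.042). The CREB3L2 call at 6 h was lost without TMD8 DMSO replicate 1, either TMD8 NGI-1 replicate, HBL1 NGI-1 replicate 1 or HBL1 DMSO replicate 2 (0.10 to 0.42), and at 24 h without either DMSO replicate of TMD8 or HBL1, TMD8 NGI-1 replicate 1 or HBL1 NGI-1 replicate 2 (0.070 to 0.27). That of ATF6 was lost without any 1 of its 8 libraries (0.067 to 0.18), with RLE size factors (0.056), without the filter (0.17) and in DESeq2 (0.056), and stood at 0.050 with a stricter filter.

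For the kinase inhibitors at 24 h, 3 of 7 genes differed between the lines with acalabrutinib (4.19% of all genes) and 3 with copanlisib (4.22%), each higher in TMD8. ERN1 differed by 1.25 ± 0.33 with acalabrutinib (adjusted p = 0.014) and by 1.27 ± 0.32 with copanlisib (adjusted p = 0.013). CREB3L2 differed by 0.54 ± 0.13 (adjusted p = 0.0090) and by 0.47 ± 0.13 (adjusted p = 0.028), MBTPS1 with acalabrutinib by 0.51 ± 0.13 (adjusted p = 0.0093) and EIF2AK3 with copanlisib by 0.73 ± 0.20 (adjusted p = 0.026). XBP1 gave 0.22 ± 0.18 (interval -0.16 to 0.59) with acalabrutinib and 0.11 ± 0.18 (interval -0.26 to 0.48) with copanlisib. All 6 of these calls were lost without some libraries. With acalabrutinib these were, for ERN1, either TMD8 DMSO replicate, HBL1 DMSO replicate 1 or HBL1 acalabrutinib replicate 2 (0.056 to 0.11), and for CREB3L2 (0.058 and 0.083) and MBTPS1 (0.090 and 0.056) TMD8 DMSO replicate 2 or HBL1 acalabrutinib replicate 2. With copanlisib they were, for ERN1, HBL1 DMSO replicate 1 (0.11) or TMD8 copanlisib replicate 2 (0.089), for EIF2AK3 any 1 of the 8 libraries except TMD8 DMSO replicate 1 and TMD8 copanlisib replicate 2 (0.052 to 0.22), and for CREB3L2 any 1 except HBL1 copanlisib replicate 1 (0.054 to 0.13). CREB3L2 with copanlisib was lost without the filter (0.053) and with a stricter one (0.055) as well.

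**Figure D4:**
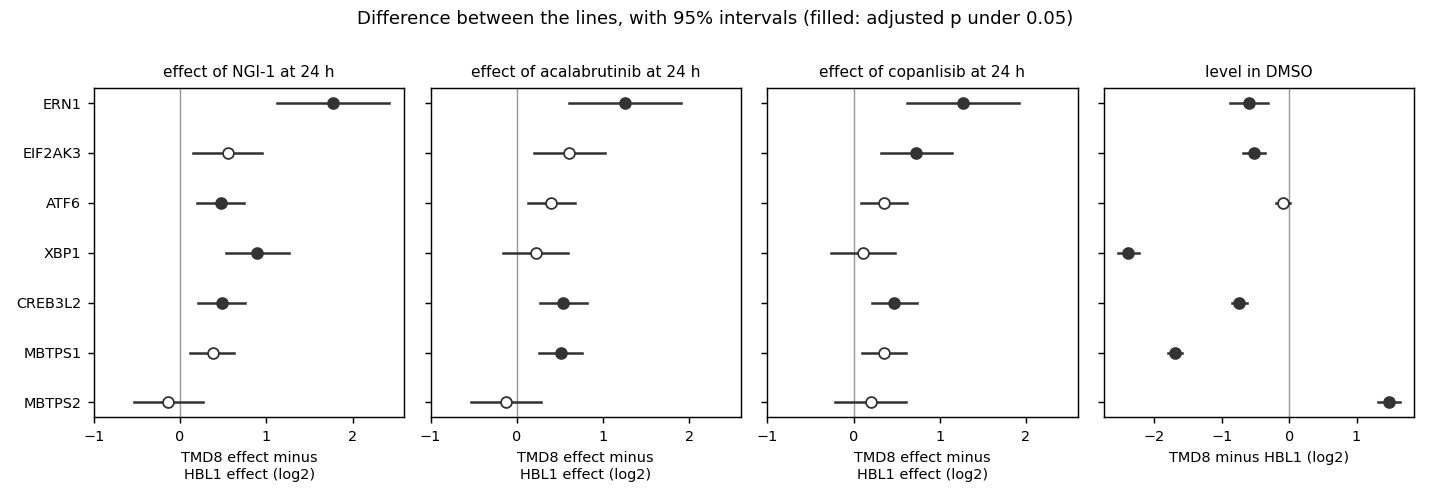
Difference between TMD8 and HBL1 for each gene with 95% intervals (x axes, log2): the effect of each compound at 24 h in the 3 panels to the left, and the level in DMSO in the panel to the right. Filled points have an adjusted p under 0.05. ERN1 has the largest difference in effect in each of the 3 panels, and XBP1 and MBTPS1 have the lowest DMSO level of TMD8 relative to HBL1.

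Compounds were compared with each other at 24 h, since their comparisons with DMSO share libraries. NGI-1 gave more XBP1 than acalabrutinib in TMD8, with 129.5 and 121 CPM against 73.7 and 75.6 CPM (0.74 ± 0.13, adjusted p = 0.00058), and more than copanlisib, with 70.5 and 73.8 CPM (0.79 ± 0.13, adjusted p = 0.00023). In HBL1 XBP1 did not differ beyond the spread between NGI-1 and acalabrutinib (0.07, interval -0.18 to 0.31) or copanlisib (0.01, interval -0.23 to 0.25). MBTPS1 was lower with NGI-1 than with acalabrutinib in TMD8 (-0.38 ± 0.09, adjusted p = 0.017) and lower than with copanlisib in HBL1 (-0.35 ± 0.08, adjusted p = 0.0062), and CREB3L2 was higher with NGI-1 than with acalabrutinib in HBL1 (0.31 ± 0.09, adjusted p = 0.047). These made 2 of 7 genes called for NGI-1 against acalabrutinib in TMD8 (1.30% of all genes) and 1 in HBL1 (3.25%), and 1 of 7 against copanlisib in TMD8 (1.35%) and 1 in HBL1 (4.93%). Copanlisib against acalabrutinib called 0 of 7 in TMD8 (0.461%) and in HBL1 (0.101%), with 0 at an unadjusted p under 0.05 and 0 in DESeq2, and the intervals for XBP1 ran from -0.32 to 0.22 in TMD8 and from -0.19 to 0.30 in HBL1. The XBP1 calls held without any 1 library. The MBTPS1 call in TMD8 was lost without any 1 of its 4 libraries (0.073 to 0.32), and that in HBL1 without NGI-1 replicate 1 (0.092) or copanlisib replicate 2 (0.089). The CREB3L2 call was lost without either acalabrutinib replicate (0.066 and 0.44) or NGI-1 replicate 1 (0.64, log2 change 0.18), with RLE size factors (0.058), with the filters changed (0.062 and 0.054), without the robust option (0.057) and with the line fitted on its own (0.13).

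The genes that the sensors act on gave the setting. Lists here and below were chosen with earlier results of these data known. Of 23 genes for ER folding and degradation that XBP1 or ATF6 are known to activate, NGI-1 called 17 higher at 3 h, 19 at 6 h and 20 at 24 h in TMD8 and 14, 17 and 15 in HBL1, with 0 lower throughout. Of all genes NGI-1 called 0.735%, 4.25% and 30.4% at these times in TMD8 and 0.353%, 1.15% and 19.2% in HBL1. The median log2 change of all genes lay between 0 and 0.01. That of the 23 genes was 1.09, 1.27 and 1.05 in TMD8 and 0.66, 1.03 and 0.60 in HBL1. At 6 h these included in TMD8 HSPA5, the ER chaperone BiP (2.02 ± 0.16), DERL3, a part of the degradation channel (1.79 ± 0.29), SDF2L1, a BiP partner (1.77 ± 0.16), and DNAJC3, a BiP co-chaperone (1.63 ± 0.21). In HBL1 the same genes rose by 1.67 ± 0.16, 1.55 ± 0.24, 1.51 ± 0.15 and 1.13 ± 0.20. When single libraries were left out, the HBL1 count at 3 h was 5 (DMSO replicate 1) or 6 (NGI-1 replicate 1), and the 6 h count was 11 (NGI-1 replicate 2).
With the kinase inhibitors fewer genes of this list were called at 24 h. There, when XBP1 was called higher in both lines, acalabrutinib called 5 of the 23 genes up and 1 down in TMD8, set beside 1 up and 2 down in HBL1. Copanlisib called 6 up and 1 down in TMD8, set beside 2 up and 8 down in HBL1. Of all genes 30.8% and 18.9% were called with acalabrutinib and 31.6% and 30.2% with copanlisib, in TMD8 and HBL1 in that order. The acalabrutinib counts and the copanlisib count in TMD8 lie near or below that share. The copanlisib count in HBL1, mostly of lower genes, lies above it. These departures from the share were not tested. HSPA5 had values of 0.17 ± 0.16 with acalabrutinib (adjusted p = 0.46) and -0.14 ± 0.16 with copanlisib (adjusted p = 0.54) in TMD8, and fell with copanlisib in HBL1 (-0.42 ± 0.16, adjusted p = 0.045), as did SDF2L1 (-0.52 ± 0.17, adjusted p = 0.015). In TMD8 DERL3 rose with both (0.98 ± 0.26 each, adjusted p = 0.0047 and 0.0048). At 6 h in TMD8, where XBP1 was lower with copanlisib, HSPA5 (-0.68 ± 0.16, adjusted p = 0.0038) and SDF2L1 (-0.57 ± 0.19, adjusted p = 0.030) were lower too. Of the 23 genes 7 were called lower there and 1 higher (14.4% of all genes called). In HBL1 at 6 h copanlisib called 4 of the 23 lower and 0 higher (9.54%), while XBP1 was not called (0.06 ± 0.12, adjusted p = 0.85). SDF2L1 (-0.55 ± 0.16, adjusted p = 0.023) was lower there, and HSPA5 (-0.48 ± 0.16, adjusted p = 0.054) missed the threshold. A link between XBP1 and these falls was not tested.

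Genes downstream of PERK were called in TMD8. In HBL1 the main fit did not call them at 3 or 6 h, although EIF2AK3 itself rose in both lines. Of 15 such genes NGI-1 called 7 higher at 3 h and 7 at 6 h in TMD8, and 0 at 3 h and 0 at 6 h in HBL1, with 3 and 6 at an unadjusted p under 0.05. In HBL1 DESeq2 called 1 each time, the fit without the filter 3 and 6, and the replicate block within each line and time 4 and 7. That block called 13 and 11 in TMD8. Of all genes the main fit called 0.735% and 4.25% in TMD8 and 0.353% and 1.15% in HBL1. The difference between the lines was not tested for the list. DDIT3, which encodes the factor CHOP, rose in TMD8 by 2.19 ± 0.32 (3 h) and 1.59 ± 0.33 (6 h), and its values in HBL1 were 1.26 ± 0.32 (adjusted p = 0.097) and 1.17 ± 0.34 (adjusted p = 0.11). VLDLR, a lipoprotein receptor gene, rose in TMD8 by 1.57 ± 0.24 (3 h) and 1.32 ± 0.24 (6 h). At 24 h 2 were called higher with NGI-1 in TMD8, DDIT3 (1.21 ± 0.37) and the cystine transporter gene SLC7A11 (1.66 ± 0.35), and in HBL1 1 was higher and 1 lower, the asparagine synthetase gene ASNS (-0.76 ± 0.17). That HBL1 count of 2 was 8 without the filter, 5 in DESeq2, 4 without the robust option and 1 when either DMSO replicate was left out. At 24 h the kinase inhibitors called 6 (acalabrutinib) and 5 (copanlisib) of the 15 lower in TMD8 and 4 and 5 in HBL1, with 1 higher in each case, where 30.8%, 31.6%, 18.9% and 30.2% of all genes were called in either direction. The TMD8 count of 7 was 13 at 3 h and 11 at 6 h without the filter, and 11 at 3 h with the line fitted on its own. At 3 h it was 4 without DMSO replicate 1, and at 6 h it was 3 when either DMSO replicate was left out and 4 when NGI-1 replicate 1 was. The 24 h count of 2 was 1 without DMSO replicate 1 or NGI-1 replicate 1, and 4 without the filter or with the line fitted on its own.

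At 6 h NGI-1 called 4.25% of all genes in TMD8 and 1.15% in HBL1. Of 15 regulators and partners of IRE1 and PERK, NGI-1 at 6 h in TMD8 called 2 higher and 2 lower. The higher were the translocon genes SEC61A1 (0.66 ± 0.10) and SEC63 (0.48 ± 0.10). The lower were the eIF2 alpha kinase gene EIF2AK2 (-0.37 ± 0.11) and the phosphatase gene PTPN1 (-0.30 ± 0.08). Their count of 4 fell to between 1 and 3 when single libraries were left out. EIF2AK2 was lower with each kinase inhibitor at 24 h too, by -0.58 ± 0.11 and -0.82 ± 0.11 in TMD8 and by -0.48 ± 0.11 and -0.63 ± 0.11 in HBL1, for acalabrutinib and for copanlisib in that order. Of 11 COPII coat genes, whose products form the vesicles in which ATF6 leaves the ER, NGI-1 at 6 h called 3 higher in TMD8, SEC24D (1.58 ± 0.24), SEC24C (0.52 ± 0.08) and SEC23B (0.51 ± 0.11), and 3 higher in HBL1, a count of 0 to 2 there by edgeR when single libraries were left out. Of 11 relatives of these factors and other clients of the proteases, ERN2 (52 reads over all libraries) and CREB3L3 (1 read) were too low to test, and NGI-1 called 3 of the other 9 higher at 24 h in TMD8, near the 30.4% of all genes called. Of 11 factors of B cell to plasma cell differentiation, NGI-1 called 7 higher and 2 lower at 24 h in TMD8, where acalabrutinib called 6 and 2 and copanlisib 6 and 1 (30.4%, 30.8% and 31.6% of all genes called). In HBL1 at 24 h they called 3 and 2 (NGI-1), 4 and 1 (acalabrutinib) and 5 and 1 (copanlisib), where 19.2%, 18.9% and 30.2% of all genes were called. The NGI-1 count of 5 in HBL1 was 2 when DMSO replicate 1 and 3 when NGI-1 replicate 2 was left out.

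As a description of shared patterns, log2 levels were centred on the mean of the 4 groups of a line and time and correlated over the 24 group means, which share their libraries and DMSO groups. XBP1 was most like DNAJC6 (Pearson r = 0.925), HSP90B1 (0.913), DNAJB9 (0.910), DDIT3 (0.901) and HSPA5 (0.887) among 11022 genes. EIF2AK3 was most like ALG2 (0.960) and ENTPD7 (0.950), ERN1 like YIPF1 (0.903) and ZKSCAN1 (0.885), CREB3L2 like TMEM66 (0.947) and SLC1A4 (0.941), and MBTPS1 like RASSF6 (0.951) and KIAA1370 (0.947). ATF6 reached 0.767 with FYCO1 and 0.754 with EXT1, and MBTPS2 0.846 with PTPN9 and 0.748 with LOC100131973. Between the 7 genes themselves the highest values were those of ERN1 with CREB3L2 (0.88) and of EIF2AK3 with XBP1 (0.79), while XBP1 with MBTPS1 gave -0.07 and XBP1 with ERN1 0.58.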

How the data were processed

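RNA was sequenced from 48 libraries of TMD8 and HBL1. The deposited values are counts of reads per gene that the authors made with HTSeq on hg19, per the submitters' processing notes, and the aligner and the versions are not given in the sources used here. Rows without a gene identifier (3449 rows, 0.815% of reads) were kept under their gene names. Counts were tested with edgeR 4.0.16 in R 4.3.3 (TMM factors of 0.951 to 1.07, the default filter on low counts, 1 mean for each of the 24 groups, robust quasi-likelihood F test, 24 residual degrees of freedom), and p-values were adjusted by Benjamini-Hochberg within each of 42 comparisons over 13881 genes. Levels are CPM with TMM. The robust option is checked against its absence, an alternative added after the data were seen. The other alternatives were RLE size factors, changed filters, a replicate block, separate lines, DESeq2 1.42.0 and leaving out each library, where the lone library left is assumed to vary like the other groups. The procedure was also run on simulated counts drawn without a replicate effect. That run cannot speak to the correlation between same-numbered libraries. The 7 genes and the lists were chosen with earlier results of these data known. The nearest genes were those with the highest Pearson r, 5 for XBP1 and 2 for each other gene. Read numbers limit the precision of low genes such as ERN1. Promoters came from RefSeq (GRCh38.p14) and the cut site and exons from GENCODE v29, whose coordinates were not mixed with hg19.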

Additional observations from a re-analysis of the deposited data

Results flagged for a closer look

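Effects that differed between the lines, by the test of the difference itself in edgeR (TMD8 effect minus HBL1 effect, log2), were as follows. With NGI-1 they were 1.19 for XBP1 at 3 h, 0.70 for CREB3L2 at 6 h, and at 24 h 1.77 for ERN1, 0.47 for ATF6, 0.89 for XBP1 and 0.48 for CREB3L2. With acalabrutinib at 24 h they were 1.25 for ERN1, 0.54 for CREB3L2 and 0.51 for MBTPS1. With copanlisib at 24 h they were 1.27 for ERN1, 0.73 for EIF2AK3 and 0.47 for CREB3L2.

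Effects that differed between the times (24 h effect minus 3 h effect, log2) were, with NGI-1 in TMD8, 1.21 for ERN1, 0.67 for CREB3L2 and 0.55 for MBTPS1. With acalabrutinib they were 1.33 for ERN1, 0.90 for XBP1, 0.72 for CREB3L2 and 0.91 for MBTPS1 in TMD8, and 0.61 for XBP1 in HBL1. With copanlisib they were 1.08 for ERN1, 0.97 for XBP1, 0.52 for CREB3L2 and 0.67 for MBTPS1 in TMD8, and 0.73 for XBP1 in HBL1. The vehicle levels of several of these genes were lower at 24 h than at 3 h, and their part in these differences was not tested.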

How the results depend on the processing

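No called log2 change of the 7 genes reversed under any alternative run. Of the 126 tests against DMSO, 42 were called, against 43 with RLE size factors, 41 without the filter, 44 with a stricter one, 42 without the robust option, 42 with each line fitted on its own and 43 of 125 in DESeq2. With each line fitted on its own, XBP1 with NGI-1 in HBL1 was not called at 3 h (0.54, adjusted p = 0.21) or at 6 h (0.57, adjusted p = 0.066), and the number of the 7 genes called was 1 for NGI-1 at 3 h in HBL1, 1 for copanlisib at 3 h in TMD8 and 0 for NGI-1 at 6 h in HBL1. The XBP1 line difference for NGI-1 at 6 h was called without the filter (0.77) and in DESeq2 (0.76). The causes were not tested.

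The labels do not say whether same-numbered libraries belong together. Their deviations from the group means correlated at 0.14 to 0.52 over the 18 comparisons. Of the 48 libraries 30 correlated best with the other library of their group and 18 with one of their own number from another group. The main fit has no replicate term, and what lies behind these correlations was not tested. With the replicate block 45 of 126 tests were called, 3 more and none lost, and XBP1 with NGI-1 at 3 h in TMD8 stood at 1.72. With a replicate block within each line and time 57 were called. The number of the 7 genes called was then 2 for copanlisib at 3 h in TMD8 and 2 in HBL1, 2 for acalabrutinib at 6 h in TMD8 and 2 in HBL1, 5 for copanlisib at 6 h in TMD8 and 4 for NGI-1 at 24 h in HBL1, and the XBP1 line difference at 6 h (0.77) was called. That fit also called falls of XBP1 (copanlisib 3 h TMD8 and HBL1, acalabrutinib 6 h TMD8), EIF2AK3 (acalabrutinib 6 h HBL1) and ATF6 (copanlisib 6 h TMD8, NGI-1 24 h HBL1), with adjusted p from 0.01 to 0.048. The PERK list count of 2 for NGI-1 at 24 h in HBL1 was 5 with the replicate block and 11 within each line and time.

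When single libraries were left out, XBP1 with NGI-1 in HBL1 ran from 0.45 to 0.62 at 3 h and from 0.39 to 0.72 at 6 h, and its line difference at 6 h from 0.61 to 0.92. The number of the 7 genes called ran from 0 to 1 (NGI-1 3 h HBL1), 1 to 3 (NGI-1 3 h TMD8), 0 to 3 (NGI-1 6 h HBL1), 0 to 0 (acalabrutinib 6 h HBL1), 0 to 1 (acalabrutinib 6 h TMD8), 0 to 1 (copanlisib 3 h HBL1), 1 to 2 (copanlisib 6 h HBL1) and 1 to 2 (copanlisib 6 h TMD8).

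Counts over all genes, the base of the shares given beside the results, moved by more than 1.5 times in 35 of 42 comparisons with the block within each line and time and in 15 without the filter, and in 115 fits with a library left out, while 121 such fits stayed within it. Leaving out a library took NGI-1 in HBL1 at 3 h down to 8 (without DMSO replicate 1) from 49 and at 6 h to 43 (without NGI-1 replicate 2) from 160, and acalabrutinib in HBL1 at 3 h to 9 (without acalabrutinib replicate 2) from 31. For NGI-1 at 3 h there were 102 called in TMD8, against 161 without the filter and 508 with the block within each line and time, and 49 in HBL1, against 101, 307 and, with the line fitted on its own, 13. The line difference for NGI-1 at 3 h called 2 genes, against 22 without the filter and 56 with the block within each line and time.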
